A study of Sus scrofa with 31 samples.

Results

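The pig heart as it entered preservation is described here from 6 biopsies of myocardium: 3 hearts that were to be kept under HOPE and 3 that were to be kept under SCS, all taken at 0 h. They were chosen as the arm 1 samples labelled 0 h, and they are 6 of 24 arm 1 samples and 6 of 31 samples in the series. The HOPE hearts came from pigs 2, 4 and 6 and the SCS hearts from pigs 1, 3 and 5, so the 2 groups share no animal, and each heart was biopsied again at 12, 24 and 48 h. The labels do not spell out HOPE and SCS; the usual readings in heart preservation are hypothermic oxygenated perfusion, in which a cold oxygenated solution is pumped through the coronary vessels, and static cold storage, in which the flushed heart lies in cold solution. No genetic alteration, drug, strain, sex, age or weight is given for the pigs, and the labels do not say whether the 0 h biopsy came before or after the cold flush. One protocol sentence places all biopsies at the end of the experiment, and the 0 h of the titles was followed here. The comparison asks how alike the 2 sets of hearts were at the time the titles give as 0 h.

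Ventricular myocardium is mostly cardiomyocyte by volume, while most of its nuclei belong to endothelial cells, fibroblasts, pericytes and immune cells packed between the fibres. Cardiomyocytes contract by sliding myosin filaments along actin filaments, a cycle started by calcium that enters through membrane channels and is released from the sarcoplasmic reticulum. The fuel is mainly fatty acid, oxidised in mitochondria that hold their own small genome and transcribe it at a high rate. A bulk biopsy sums all of these cells, and in such data fewer cells of a type and less RNA per cell cannot be told apart.

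The 6 libraries held 20490478 to 28643950 reads, recovered from the authors' normalised counts, whose values are whole reads divided by 1 size factor a library. A normalised count is therefore a read count on a common scale; it is not divided by gene length, so shares and levels below rank genes by reads and not by molecules. Fold changes are log2 values ± SE of HOPE over SCS, from limma on log2(normalised count + 1), and values of single hearts are given for HOPE pigs 2, 4 and 6 and for SCS pigs 1, 3 and 5, in those orders. Each group has 3 pigs, and the p-values measure the spread between them.

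The commonest transcripts at 0 h came from the mitochondrial genome. Its 13 protein-coding genes, all for parts of the respiratory chain or of ATP synthase, took 33.2%, 34.6% and 39.5% of the normalised counts in HOPE hearts, against 35.9%, 38.7% and 52.5% in SCS hearts. The groups overlapped, and SCS pig 5 stood above the other 5 hearts. The share averaged 35.8% ± 3.30 in HOPE hearts and 42.4% ± 8.89 in SCS hearts (SD, n = 3 each), a difference of -6.57 percentage points with a two-sided exact permutation p of 0.3, where 3 against 3 cannot go below 0.1. COX1, the catalytic subunit of cytochrome c oxidase, was the most counted gene, at 10.1% ± 0.939 of counts in HOPE hearts and 12.8% ± 1.84 in SCS hearts. COX3, another core subunit of that complex, followed at 5.17% ± 0.817 in HOPE hearts and 5.96% ± 1.29 in SCS hearts. ATP6, a membrane subunit of ATP synthase, came to 4.75% ± 1.18 in HOPE hearts and 5.75% ± 0.847 in SCS hearts. Of the 20 genes with the highest mean, 11 were mitochondrially encoded: to COX1, COX3 and ATP6 were added COX2, CYTB of complex III and the complex I subunits ND1, ND2, ND3, ND4, ND5 and ND6. The other 9 were 8 genes of contraction and energy supply and the unnamed gene ENSSSCG00000056610.

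The nuclear genes at the top were those of the ventricular sarcomere. MYH7, the slow myosin heavy chain that is the main motor of the large-mammal ventricle (chromosome 7, positions 75650841 to 75672908 of Sscrofa11.1), had 528134, 510289 and 179022 normalised counts in HOPE hearts, against 308557, 174331 and 198554 in SCS hearts. HOPE pigs 2 and 4 stood above the other 4 hearts, and HOPE pig 6 lay among the SCS hearts. Of the counts outside the 13 mitochondrial protein-coding genes, MYH7 held 3.73, 3.299 and 1.29% in HOPE hearts and 2.26, 1.27 and 1.34% in SCS hearts. The regulatory light chain MYL2 held 1.36, 1.76 and 1.84% in HOPE hearts and 1.62, 1.98 and 1.896% in SCS hearts. TNNI3, the cardiac inhibitory troponin, held 1.03, 1.205 and 2.14% in HOPE hearts and 1.23, 1.54 and 2.21% in SCS hearts. Both overlapped between the groups, and TNNI3 was highest in HOPE pig 6 and SCS pig 5. The 20 most counted genes outside those 13, some of them unnamed, also held the skeletal form of actin ACTA1, the cardiac form ACTC1 and troponins TNNT2 and TNNC1. The essential light chain MYL3, tropomyosin TPM1, the muscle creatine kinase CKM, the glycolytic enzyme GAPDH and the ADP/ATP carrier SLC25A4 were among them too. MYH6, the fast heavy chain of the atrium and a near-identical neighbour of MYH7 with which it may share reads, had 23032, 31997 and 1767 normalised counts in HOPE hearts and 10069, 22579 and 11772 in SCS hearts. It was lowest in HOPE pig 6.

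**Figure D1:**
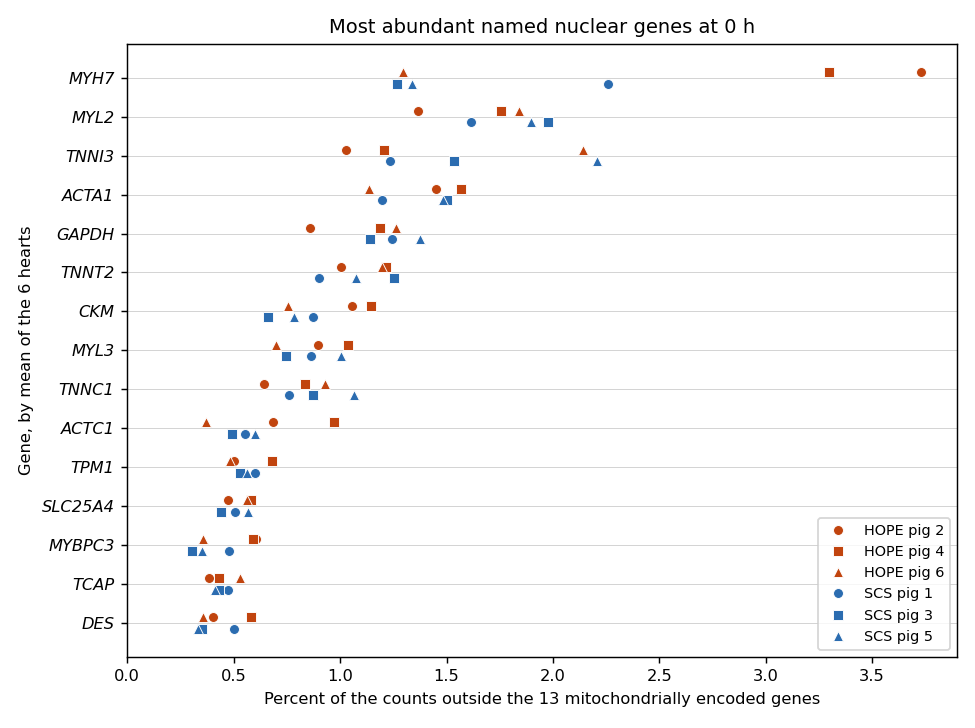
The 15 most counted named nuclear genes at 0 h (rows) are plotted as percent of the counts outside the 13 mitochondrially encoded genes, with 1 point a heart, HOPE in orange above SCS in blue. MYH7 reached 3.73% and 3.30% in HOPE pigs 2 and 4 and lay between 1.27% and 2.26% in the other 4 hearts.

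The markers described whole heart muscle and not isolated cardiomyocytes, although the cell type field of the labels reads cardiomyocytes. Cardiomyocyte genes dominated, and markers of the other cells of the heart wall were present in every heart. The 11 measured ventricular cardiomyocyte markers together took 6.94, 7.13 and 5.197% of counts in HOPE hearts and 5.597, 4.98 and 4.29% in SCS hearts. IRX4, a transcription factor of the ventricle, was read in all 6 hearts, at 410.2, 437 and 295 in HOPE hearts and 375, 241 and 197 in SCS hearts. Fibroblast markers took 0.543, 0.5204 and 0.396% of counts in HOPE hearts and 0.674, 0.515 and 0.3001% in SCS hearts, led by gelsolin GSN, which other cells also make, and the collagen COL3A1. Endothelial markers took 0.138, 0.0887 and 0.2898% in HOPE hearts and 0.266, 0.313 and 0.206% in SCS hearts, with PECAM1 and VWF, the adhesion molecule and clotting factor of vessel lining, the most counted of them. Pericytes, the contractile cells wrapped round capillaries, were marked by RGS5 at 7621, 3808 and 10198 in HOPE hearts and 12505, 15043 and 12162 in SCS hearts.

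Blood and rarer cells gave little. The macrophage and monocyte list summed to 8701 to 9635 normalised counts in HOPE hearts and 9363 to 12613 in SCS hearts, with the complement genes C1QA, C1QB and C1QC of resident macrophages and the receptor CSF1R the 4 with the highest means over the 6 hearts. The T and NK cell list summed to 594 to 1383 in HOPE hearts and 1024 to 1588 in SCS hearts. The measured neutrophil markers were near 0 in every heart: the 4 genes summed to 9.15 to 33.2 in HOPE hearts and 6.002 to 19.8 in SCS hearts. Of these, the alarmin S100A8 had 1 read in SCS pig 3 and 0 in the other 5 hearts. The listed neutrophil genes S100A9, CXCR2, FPR1 and MMP8 were not matched by symbol. Red cell genes were scarce too, their 6 measured members summing to 23.6 to 55.9 in HOPE hearts and 34.5 to 72.03 in SCS hearts, with the globin HBB at 10, 14 and 44 reads in HOPE hearts and 22, 23 and 46 reads in SCS hearts. The other main adult globin, HBA, was not matched by symbol. The platelet chemokine PPBP had 0 reads in all 6 hearts, and the fat cell hormone ADIPOQ had at most 51. The listed platelet gene PF4 was not matched by symbol. The B cell gene MS4A1 reached at most 11 reads. The Y-linked genes EIF1AY and USP9Y had at most 1 read in a heart, and XIST and the other listed Y-linked genes were not matched by symbol.

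Markers of muscle from elsewhere were uneven between single hearts. SLN, sarcolipin of the atrium, had 12.96, 55.5 and 6.48 normalised counts in HOPE hearts and 16.6, 59.6 and 8.403 in SCS hearts. MYL4, the atrial light chain, had 442, 1994 and 61.5 in HOPE hearts and 123, 273 and 146 in SCS hearts, and HOPE pig 4 stood far above the rest. The pacemaker channel HCN4 had at most 7 reads. Fast skeletal myosin MYH4 had 3 reads in HOPE pig 6 and 0 in the other 5 hearts. TNNI2, fast skeletal troponin, had 0, 2.096 and 6.48 normalised counts in HOPE hearts and 7.28, 8.62 and 12.004 in SCS hearts.

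**Figure D2:**
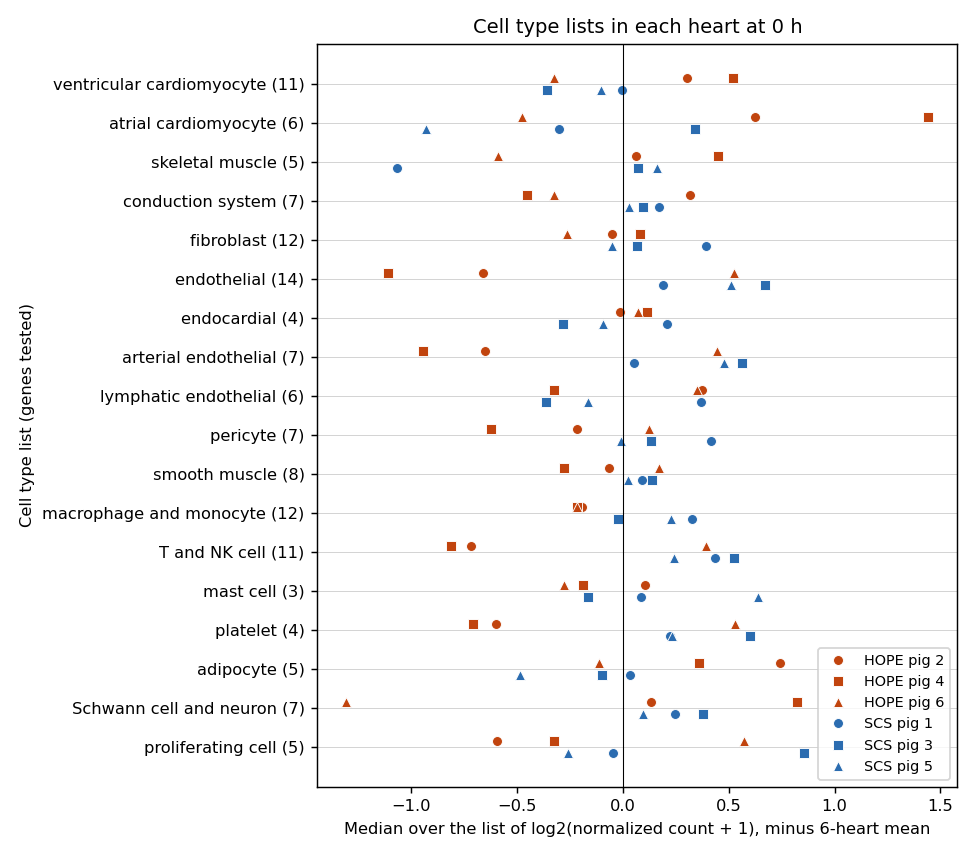
For each cell type list with at least 3 tested genes (rows, number of genes in brackets), a point gives the median over the genes of log2(normalised count + 1) in 1 heart after subtraction of the mean of the 6 hearts; HOPE is orange and above SCS in blue. In the endothelial list HOPE pigs 2 and 4 lay at -0.66 and -1.11, and HOPE pig 6 lay at 0.53 among the SCS hearts at 0.19, 0.67 and 0.51.

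The 6 hearts did not fall into a HOPE set and an SCS set. In a principal component analysis of all tested genes, the first component carried 50.4% of the variance and set HOPE pigs 2 and 4, at -46.3 and -68.7, apart from HOPE pig 6 at 36.3 and from the SCS hearts at 7.28, 37.8 and 33.6. Across genes, which are not independent replicates, HOPE pig 6 correlated at r = 0.961, 0.971 and 0.964 with the 3 SCS hearts, and at 0.937 and 0.920 with HOPE pigs 2 and 4. HOPE pigs 2 and 4 correlated with each other at 0.968. In all 24 arm 1 libraries the best correlated other library came from the same pig, for HOPE pig 6 at 0 h by a narrow margin, at 0.973 against 0.971 for SCS pig 3. That pairing says only that the 4 libraries of a pig belong together, and nothing of which group a pig belongs to.

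**Figure D3:**
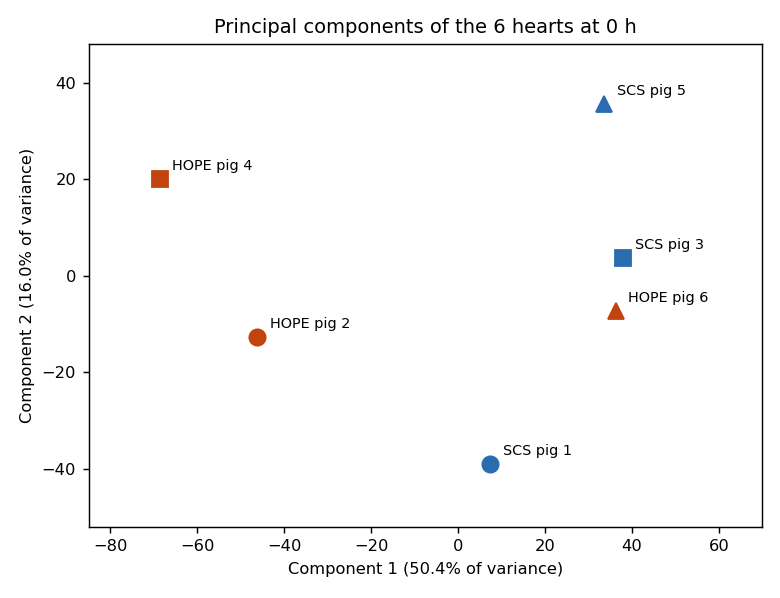
Component 1 (horizontal, 50.4% of variance) and component 2 (vertical, 15.97%) of log2(normalised count + 1) are plotted for the 6 hearts, HOPE in orange and SCS in blue. HOPE pigs 2 and 4 lie at the left, and HOPE pig 6 lies beside SCS pig 3.

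A second division crossed the groups and lay within the mitochondrial genes. ND1, a core subunit of complex I, came to 13.8% to 16.2% of the COX1 count in pigs 2, 4 and 5, and to 3.77% to 4.26% in pigs 1, 3 and 6. ATP8, a small subunit of ATP synthase whose reading frame overlaps that of ATP6, came to 9.16% to 10.6% of ATP6 in pigs 2, 4 and 5 and to 1.22% to 1.75% in pigs 1, 3 and 6. The ratios stayed with the pig: over all 4 times ND1 was 12.7% to 16.2% of COX1 in the 12 libraries of pigs 2, 4 and 5 and 3.68% to 4.49% in the 12 libraries of pigs 1, 3 and 6. The split into these 2 sets of pigs was made after the values were seen, and its source was not tested. Since 2 of the 3 HOPE pigs and 1 of the 3 SCS pigs lie on the high side, the values of ND1, ND2, COX2 and ATP8 hold both this division and any difference between the groups. For ND2 the share of COX1 was 17.6% to 21.2% in pigs 2, 4 and 5 and 9.76% to 11.02% in pigs 1, 3 and 6, and for COX2 it was 32.1% to 34.4% and 19.3% to 23.02% in the same sets.

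No gene passed the test between HOPE and SCS hearts. Of 14122 genes with a mean of at least 10 normalised counts, limma called 0 (0%) at a Benjamini-Hochberg adjusted p under 0.05; 1095 had an unadjusted p under 0.05, and the smallest adjusted p was 0.607. On the recovered reads, edgeR's quasi-likelihood test also called 0, with 1149 at an unadjusted p under 0.05, while DESeq2 called 32, with 22 higher and 10 lower in HOPE. In 737 genes (5.22% of those tested) all 3 HOPE hearts lay above all 3 SCS hearts, and in 877 (6.21%) all 3 lay below. Such groups are called apart in what follows, and these shares are the background for each count of genes apart. The median log2 fold change over all tested genes was -0.02, and 48.4% of the genes were positive.

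The count turned on HOPE pig 6. Without it, limma on the other 5 hearts called 1026 genes higher in HOPE (7.27% of those tested) and 981 lower (6.95%), whereas leaving out any other single heart gave 0 calls, or 1 without HOPE pig 4. In 478 of the 1026 higher genes (46.6%) HOPE pig 6 lay within the range of the SCS hearts, in 215 (21.0%) it lay beyond them on the side of the other HOPE hearts, and in 333 (32.5%) it lay beyond them on the opposite side. Among the 981 lower genes the same counts were 554 (56.5%), 214 (21.8%) and 213 (21.7%). Leaving out each heart was one of the settings compared; attention to pig 6 followed from its values, and nothing in the labels sets it apart. Most lists below are therefore given both with all 6 hearts and without pig 6. Each count of list members called without pig 6 rests on 2 HOPE hearts and on a choice made after the values were seen. Such counts are a description and no support for a difference in a list. Every named gene that was tested has an adjusted p of at least 0.607 in limma with all 6 hearts, and named genes below the filter were not tested.

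The genes named below are mainly 14 on the higher side and 16 on the lower side, picked by p, fold change and earlier results. None of the 30 passed the test with 6 hearts. All 30 did without pig 6, where 7.27% of all tested genes were called higher and 6.95% lower. DESeq2 with 6 hearts called 11 of the higher and 6 of the lower ones, and 32 of all 14122 genes. The genes were picked on the values of these same hearts, so both counts follow largely from the choice and are no support. Of the 14 higher genes NR4A3, an orphan nuclear receptor of the immediate early class (chromosome 1, positions 241569867 to 241611735 of Sscrofa11.1), had the largest fold change. It had 432, 1890.5 and 1873 normalised counts in HOPE hearts, against 50.95, 125 and 134 in SCS hearts, a log2 fold change of 3.59 ± 0.60. Every HOPE heart stood above every SCS heart by at least 3 times, pig 6 included. DESeq2 called it, with an adjusted p of 5.6e-08, and so did limma after scaling each library to its total count, with an adjusted p of 0.0318. Its relatives NR4A1 and NR4A2 overlapped between the groups, with the highest value of each in a HOPE heart and the lowest in an SCS heart. NR4A1 had 775, 1080.4 and 1168 in HOPE hearts and 388, 795 and 636 in SCS hearts. NR4A2 had 60.2, 76.5 and 25.9 in HOPE hearts and 50.95, 34.5 and 19.2 in SCS hearts.

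The other leading genes that were higher in HOPE hearts were of mixed roles. CYFIP2, a subunit of the WAVE complex that starts branched actin growth (chromosome 16, positions 65852584 to 66001576), had 1877, 1215 and 548 normalised counts in HOPE hearts, against 226, 239.9 and 115 in SCS hearts, a log2 fold change of 2.54 ± 0.46 with all hearts and 3.03 without pig 6. LRP8, a lipoprotein receptor that binds reelin and apolipoprotein E (chromosome 6, positions 158905464 to 158984743), had 267, 303 and 119.8 in HOPE hearts, against 28.1, 45.5 and 73.2 in SCS hearts, at 2.21 ± 0.45 and 2.62. In both genes the groups were apart and pig 6 was the lowest of the HOPE hearts. SPIRE2, which nucleates actin filaments, had 482, 627 and 341 in HOPE hearts, against 107, 222 and 191 in SCS hearts, at 1.496 ± 0.33. FAM43B had 170.04, 171 and 127 in HOPE hearts, against 36.4, 79.2 and 46.8 in SCS hearts, at 1.57 ± 0.33. PLEKHA6, a protein with a lipid-binding pleckstrin domain, had 276, 253 and 259.9 in HOPE hearts, against 131, 121 and 156 in SCS hearts, at 0.95 ± 0.20. The 3 HOPE values of PLEKHA6 were close together, and without pig 6 its log2 fold change was 0.96. Of the rest, TENT5B, which adds adenosines to RNA tails, had 597, 188 and 89.9 in HOPE hearts, against 30.2, 76.8 and 18.01 in SCS hearts, at 2.60 ± 0.72. KLHDC8A and the matrix protein ADAMTSL5 were also apart, at 2.72 ± 0.65 and 1.03 ± 0.25.

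The partners of CYFIP2 in actin growth did not share its direction. Of the 10 genes listed as actin regulators or blood cell GTPases, 8 were negative with a median of -0.33, and CYFIP2 was the 1 that was apart on the higher side. CYFIP1, its close relative in the same complex, had 1266, 955 and 1256 normalised counts in HOPE hearts, against 1310.2, 1409 and 1342 in SCS hearts, at -0.24 ± 0.18. WASF2, a WAVE protein of that complex, had 856, 675 and 820.1 in HOPE hearts, against 945, 1130.3 and 947 in SCS hearts, at -0.36 ± 0.18. RAC2, a blood cell GTPase of the Rac family that activates it, had 164, 165 and 235 in HOPE hearts, against 339, 285 and 254 in SCS hearts, at -0.65 ± 0.23. All 3 were apart on the lower side, by far less than the gap in CYFIP2. Over all tested genes 5.22% were apart on the higher side and 6.21% on the lower side.

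On the lower side, MYL1, the light chain of fast skeletal muscle (chromosome 15, positions 113038083 to 113051315), had 63.3, 206 and 97.2 normalised counts in HOPE hearts, against 1195, 619 and 516 in SCS hearts, a log2 fold change of -2.73 ± 0.46 and of -2.65 without pig 6. SCS pig 1 was highest and all 3 HOPE hearts were below every SCS heart. The 8 measured skeletal muscle markers did not move together: their tested median was 0.14 over 5 genes, with either sign among the settings tried (-0.31 to 0.52), their sum was 158462 to 249126 in HOPE hearts and 165656 to 223298 in SCS hearts, nearly all of it ACTA1, and the part of skeletal muscle RNA in the MYL1 gap was not tested. TNNI1, slow skeletal troponin, ran the other way, at 178, 3652 and 78.5 in HOPE hearts against 56.2, 58.8 and 15.6 in SCS hearts, with HOPE pig 4 far above all others.

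IL33, an alarmin held in the nuclei of endothelial cells and fibroblasts (chromosome 1, positions 215899830 to 215941944), had 153, 177 and 268 normalised counts in HOPE hearts, against 615, 529.9 and 463 in SCS hearts, a log2 fold change of -1.46 ± 0.25 and of -1.69 without pig 6. The groups were apart, with pig 6 the highest of the HOPE hearts. ARRDC4, an arrestin-like protein that sheds glucose transporters from the cell surface, had 125, 79.6 and 172 in HOPE hearts, against 299, 354 and 258 in SCS hearts, at -1.33 ± 0.30. HMOX1, which breaks down haem, had 93.03, 104 and 121 in HOPE hearts, against 199, 196 and 196 in SCS hearts, at -0.89 ± 0.20. The 3 SCS values of HMOX1 were nearly equal, and no HOPE heart reached them. DRAM1, a lysosomal membrane protein of autophagy, had 467, 219 and 676 in HOPE hearts, against 1241, 1322 and 1263 in SCS hearts, at -1.63 ± 0.37. PI16, a marker of a fibroblast population round vessels, had 638, 372 and 691 in HOPE hearts, against 1304, 1726 and 1024 in SCS hearts, at -1.27 ± 0.29. Another 8 genes were below in every HOPE heart with log2 fold changes from -2.03 in GCNT3, a mucin-type glycosyltransferase, to -0.90 in TRIM47, a ubiquitin ligase. They held DDAH1, which degrades an inhibitor of nitric oxide synthesis, at -1.11, CDO1 of cysteine breakdown at -0.93, the desaturase SCD5 at -1.17, NET1 at -1.27, the calcineurin-like CHP2 at -1.63 and RGS4, which shortens G protein signals, at -1.55.

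**Figure D4:**
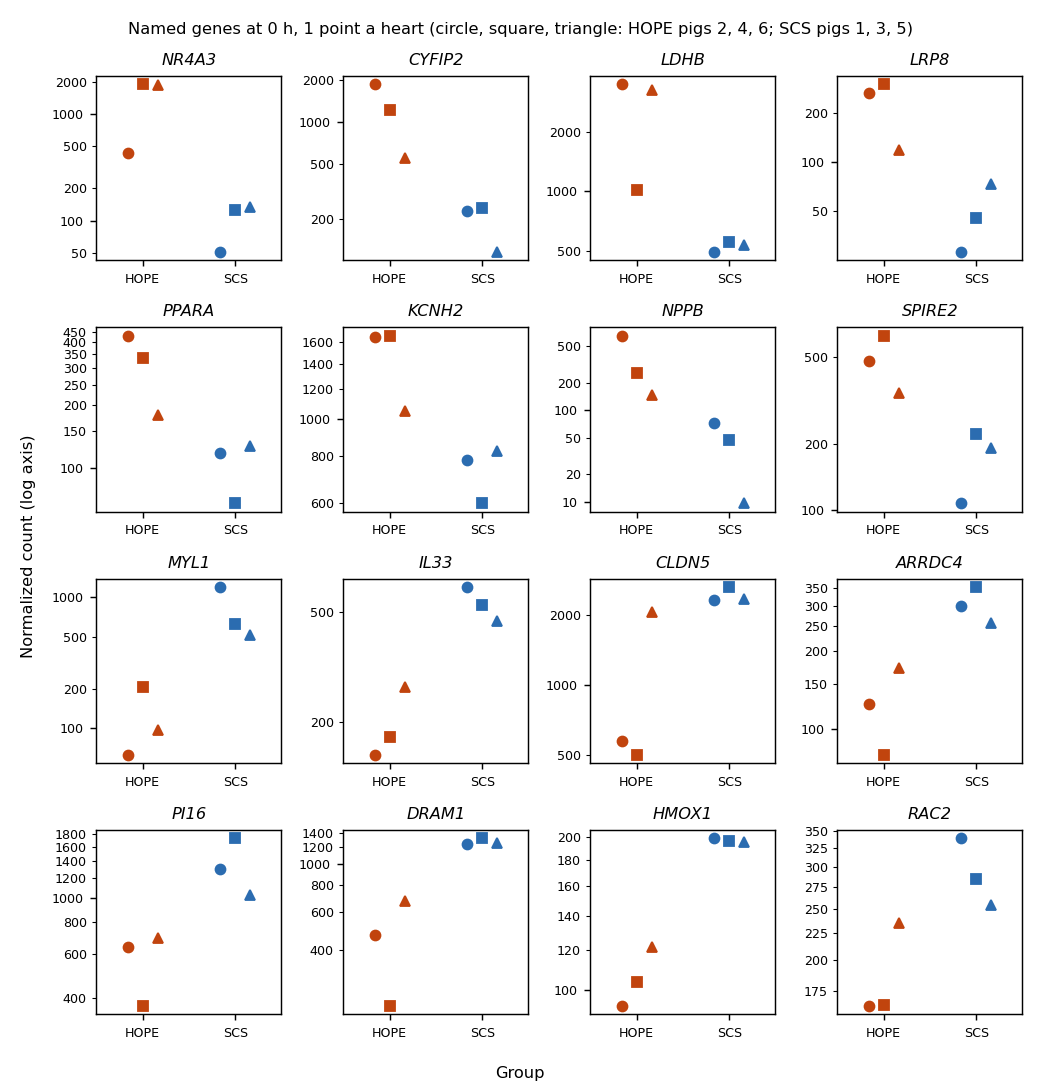
Normalised counts (vertical, log axis) of 16 named genes are shown in each heart, HOPE left in orange and SCS right in blue, with 1 point a heart. In all 16 the groups are apart; pig 6, the HOPE triangle, is the HOPE heart nearest to SCS in CYFIP2, LRP8, PPARA, KCNH2, NPPB, SPIRE2, IL33, CLDN5, ARRDC4, PI16, DRAM1, HMOX1 and RAC2.

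Markers of the vessel lining were negative throughout, though no single one passed. All 14 endothelial markers had a negative log2 fold change, with a median of -0.87 against -0.02 over all tested genes, and the median stayed negative in every setting tried (-1.29 to -0.53). The groups were apart in 2 of the 14, CLDN5 and CAV1, against 6.21% of all tested genes on that side. Without pig 6 the median was -1.29 and all 14 were called lower, against 6.95% of all tested genes. Pig 6 was left out after its values were seen, so those calls follow largely from the choice and are no support. CLDN5, the main claudin of endothelial tight junctions, had 572, 499.9 and 2064 normalised counts in HOPE hearts, against 2325, 2641 and 2334 in SCS hearts, at -1.53 ± 0.48 with all hearts and -2.18 without pig 6. FABP4, a fatty acid binding protein of capillaries, had 1813, 1338 and 6847 in HOPE hearts, against 7145, 6829 and 6884 in SCS hearts, at -1.45 ± 0.53. CAV1, the coat protein of caveolae, had 1687, 1159 and 2495 in HOPE hearts, against 2709, 3846 and 3169 in SCS hearts, at -0.92 ± 0.29. HOPE pigs 2 and 4 lay below all 3 SCS hearts in each of them, and pig 6 lay close to the SCS hearts or, for FABP4, among them. The endothelial transcription factor ERG was at -1.01 ± 0.32, the angiopoietin receptor TEK at -0.92 ± 0.38 and the junction cadherin CDH5 at -0.94 ± 0.41, with pig 6 within the SCS range in all 3. The 7 arterial endothelial markers repeated this, all negative with a median of -0.79. Without pig 6 it was -1.27 and 5 were called lower, against the same 6.95%. The 6 lymphatic endothelial markers had a median of 0.03, of either sign among the settings.

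Other cells of the vessels and the wall gave medians nearer to 0. The 7 tested pericyte markers had a median of -0.31, and -0.58 without pig 6, and RGS5 was apart at -0.98 ± 0.35. The 8 smooth muscle markers had a median of -0.09 and the 12 fibroblast markers one of -0.14, and both medians took either sign among the settings. In fibroblasts PI16, POSTN and LUM were the 3 markers below in every HOPE heart, while the groups overlapped in COL1A1, COL1A2 and COL3A1, with COL3A1 at 40702, 39199.7 and 24312 in HOPE hearts and 53697, 35499 and 23125 in SCS hearts. The 22 tested collagen and matrix genes had a median of -0.11 (-0.32 to 0.08). THBS4, a thrombospondin of stressed muscle and matrix, was the 1 that was apart, at -1.13 ± 0.29. It had 1552, 1336 and 2729.9 in HOPE hearts and 3332, 4907 and 3613 in SCS hearts. That 1 of 22 is near the 6.21% of all tested genes apart on the lower side.

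The rarer cell types rested on few tested genes, and none of their genes passed the test. Over 7 conduction system genes the median was -0.13, of either sign among the settings (-0.42 to 0.17). The 4 endocardial genes had a median of 0.11 that ran over 0.002 to 0.24 among the settings, and the 2 mesothelial and epicardial genes one of -0.49. The 7 Schwann cell and neuron genes had a median of -0.18, but 0.72 without pig 6. The 5 genes of proliferating cells, all negative, had a median of -0.33, which was -0.83 without pig 6 and 0.09 without HOPE pig 2. The 3 mast cell genes had a median of -0.76, which was -0.05 without HOPE pig 4. The 5 adipocyte genes, of which the muscle-made LPL is the most counted, had a median of 0.99, which was 0.05 without HOPE pig 4. The 4 platelet genes had a median of -0.46, with -0.94 without pig 6 and -0.16 without HOPE pig 4.

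Most T and NK cell genes were low in HOPE pigs 2 and 4 and higher in pig 6. The 11 T and NK cell markers were all negative, with a median of -0.63. Without pig 6 it was -0.98 and 4 were called lower, against 6.95% of all tested genes. CD3E, part of the T cell receptor complex, had 31.3, 32.5 and 58.3 normalised counts in HOPE hearts, against 65.5, 101 and 99.6 in SCS hearts, at -1.14 ± 0.35. GZMB, a protease of killer cells, had 16.01, 4.19 and 7.29 in HOPE hearts, against 31.2, 57.2 and 20.4 in SCS hearts, at -1.93 ± 0.61. GZMB rests on few reads and was low in pig 6 too. CD3E and GZMB were the 2 of the 11 that were apart, against 6.21% of all tested genes on the lower side. In the complement genes pig 6 lay with the other HOPE hearts. The complement gene C1QA had 1288, 1296 and 1393 in HOPE hearts, against 2152, 1653 and 2319 in SCS hearts, at -0.61 ± 0.18, and C1QB and C1QC were apart in the same direction, at -0.41 ± 0.18 and -0.42 ± 0.19. These were the 3 of 12 macrophage and monocyte markers that were apart, against the same 6.21%. The 12 macrophage and monocyte markers had a median of -0.41, the same to 2 decimals without pig 6, and 10 of them were negative. The 2 positive ones were the growth factor receptor CSF1R and CD163, at 0.17 ± 0.24 and 0.19 ± 0.25. In CSF1R the groups overlapped, with 1796, 1944 and 1312 in HOPE hearts and 1949.7, 1242 and 1330.1 in SCS hearts. CORO1A, a coronin of leukocytes, had 139, 128 and 347 in HOPE hearts and 331, 351 and 327 in SCS hearts, again with pig 6 within the SCS range.

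All 13 measured genes of antigen presentation were negative as well, with a median of -0.52. Without pig 6 it was -0.83 and 8 were called lower, against 6.95% of all tested genes, a count that follows largely from leaving that heart out. B2M, the light chain of class I molecules, had 3309, 3176 and 9567 normalised counts in HOPE hearts, against 6414, 10751 and 11581 in SCS hearts, at -0.996 ± 0.44. SLA-DOA, a pig class II chaperone chain, was the only 1 of the 13 apart, at -0.73 ± 0.26. That share is near the 6.21% of all tested genes apart on the lower side. The 16 tested inflammatory and adhesion genes had a median of -0.51, and -0.82 without pig 6, with SELP, the selectin that platelets and endothelium store, at 12.2, 19.9 and 55.1 in HOPE hearts and 74.9, 60.4 and 68.4 in SCS hearts, a log2 fold change of -1.46 ± 0.52. The endothelial list summed to 20979 to 66316 in HOPE hearts and 56619 to 70306 in SCS hearts with the lowest sums in the same HOPE pigs 2 and 4; its part in the immune and antigen presentation values was not tested. The 23 interferon-induced genes had a median of -0.22, with -0.56 without pig 6 and 0.00 without HOPE pig 4, and OAS1, a sensor of double-stranded RNA, ranged within both groups, at 839.5, 41.9 and 89.1 in HOPE hearts and 356, 858 and 505 in SCS hearts.

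Cardiomyocyte genes of excitation were mostly positive. Of 23 tested members of the calcium cycling and ion channel list, 19 were positive, with a median of 0.66. The groups were apart in 5, all of them higher in HOPE, against 5.22% of all tested genes. None passed the test with 6 hearts. Without pig 6 the median was 0.88 and 13 were called higher, against 7.27% of all tested genes, a count that follows largely from leaving that heart out. KCNH2, the channel of the rapid delayed rectifier current (chromosome 18, positions 6242826 to 6279154), had 1651, 1662 and 1049 normalised counts in HOPE hearts, against 779, 599.7 and 823 in SCS hearts, at 0.97 ± 0.24. CACNA1C, the L-type calcium channel, had 1645, 1512 and 909 in HOPE hearts, against 834, 613 and 519 in SCS hearts, at 1.03 ± 0.28. In both channels pig 6 was the lowest HOPE heart and still above all SCS hearts. KCNIP2, a partner of the transient outward channel, and GJA1, the gap junction protein connexin 43, were apart as well, at 0.97 ± 0.31 and 0.51 ± 0.23. KCNJ11, the pore of the ATP-sensitive potassium channel, overlapped at 1.13 ± 0.39. The calcium stores of the sarcoplasmic reticulum overlapped: ATP2A2, the calcium pump, had 61017, 52187 and 17543 in HOPE hearts and 29722, 20295 and 23213 in SCS hearts, and CASQ2, the calcium-binding protein calsequestrin, had 12842, 18496 and 2553 in HOPE hearts and 5312, 3414 and 3239.98 in SCS hearts. Pig 6 was the lowest of all 6 hearts in both. The 11 ventricular cardiomyocyte markers had a median of 0.38, and 0.59 without pig 6; their part in the channel values was not tested. The 19 sarcomere genes had a median of 0.16, which was 0.39 without HOPE pig 6 and -0.04 without HOPE pig 4.

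Natriuretic peptides and stretch genes varied widely from heart to heart. NPPB, the hormone BNP made by strained myocardium (chromosome 6, positions 71930374 to 71931843), had 656, 255 and 148 normalised counts in HOPE hearts, against 71.7, 47.8 and 9.603 in SCS hearts, a log2 fold change of 3.13 ± 0.76, and DESeq2 called it with an adjusted p of 0.007297. NPPA, the atrial peptide ANP, had 2080.1, 3679 and 417 in HOPE hearts, against 279.7, 1046 and 46.8 in SCS hearts, at 2.61 ± 1.12, and the groups overlapped, with SCS pig 3 above HOPE pig 6. XIRP1, an actin-binding protein of the intercalated disc, had 3649, 5087 and 1005 in HOPE hearts, against 1059, 865 and 399.7 in SCS hearts, at 1.89 ± 0.60. Its HOPE pig 6 value lay within the SCS range, and DESeq2 called it with an adjusted p of 0.0493. The 6 measured atrial markers summed to 7366 to 18221 in HOPE hearts and 6751 to 9804 in SCS hearts, with 4 of 6 positive and a median of 0.78, or 1.60 without pig 6, and the part of atrial tissue in the NPPA and NPPB values was not tested. The heart failure and stretch list as a whole had a median of -0.03 over 14 genes, of either sign among the settings (-0.21 to 0.23).

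Genes of fuel use were positive on balance. PPARA, the nuclear receptor that drives fatty acid oxidation (chromosome 5, positions 3302755 to 3321091), had 430.1, 336 and 179 normalised counts in HOPE hearts, against 118, 67.4 and 127 in SCS hearts, at 1.55 ± 0.38 with all hearts and 1.91 without pig 6. LPL, which frees fatty acids from blood lipids, had 24463, 26538 and 13533 in HOPE hearts, against 10686, 10077 and 10444 in SCS hearts, at 0.99 ± 0.29. In both genes the groups were apart, against 5.22% of all tested genes on that side. PPARGC1A, a coactivator of mitochondrial biogenesis, was at 0.62 ± 0.25 and ACSL1, which activates fatty acids, at 0.94 ± 0.39. Of 21 tested genes of fatty acid uptake and oxidation, 18 were positive with a median of 0.32. Without pig 6 the median was 0.65, and 8 were called higher and 1 lower. Of 16 genes of pyruvate entry and the tricarboxylic acid cycle, 15 were positive with a median of 0.38 and 0 were apart. Without pig 6 the median was 0.82 and 8 were called higher. Over all tested genes 7.27% were called higher and 6.95% lower there. OGDH, a subunit of the oxoglutarate dehydrogenase, had 12716, 13495 and 5961 in HOPE hearts, against 6970.1, 4644 and 5577 in SCS hearts, at 0.83 ± 0.34, and pig 6 lay within the SCS range.

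The 34 nuclear genes of the respiratory chain had a median of -0.04, of either sign among the settings (-0.13 to 0.09), with 15 positive, and 0 of them had an unadjusted p under 0.05. The 13 mitochondrial genes had a median of -0.27, which was 0.07 without SCS pig 5 and 0 after quantile normalisation. ND4L, a membrane subunit of complex I, was the only 1 of the 13 that was apart, at -0.68 ± 0.32. That share too is near the 6.21% of all tested genes apart on the lower side. All 48 measured genes of cytosolic ribosomal proteins were negative, with a median of -0.35 that stayed negative in every setting tried (-0.58 to -0.12). RPL26 of the large subunit, the list's smallest p, had 7138, 9188 and 13255 normalised counts in HOPE hearts and 11237, 12882 and 16259 in SCS hearts. None of the 48 was apart, and 5 of the 48 were called lower without pig 6, against 6.95% of all tested genes called lower there.

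Glucose genes gave single large gaps. LDHB, the lactate dehydrogenase subunit that predominates in heart, had 3486, 1022 and 3245 normalised counts in HOPE hearts, against 495, 555 and 533 in SCS hearts, at 2.10 ± 0.43. HOPE pig 4 was the lowest HOPE heart, and without it limma called LDHB with an adjusted p of 0.0136. LDHA, the muscle subunit, had 883, 805 and 920.5 in HOPE hearts, against 1274, 1072 and 1102 in SCS hearts, at -0.40 ± 0.16, the reverse direction. Lactate dehydrogenase genes have near-identical retrocopies in mammals, and the rule by which such reads were counted is unknown here, so both levels are uncertain. SLC2A4, the insulin-responsive glucose transporter, had 2997, 3204 and 2583 in HOPE hearts, against 1481, 1283 and 2176 in SCS hearts, at 0.86 ± 0.23, with every HOPE heart above the SCS hearts. The 17 glycolysis genes had a median of 0.37, and 0.60 without pig 6, with 13 positive. KLF15, a metabolic transcription factor induced by glucocorticoid, had 608, 809 and 425 in HOPE hearts, against 299, 276 and 325 in SCS hearts, at 0.98 ± 0.25. The 19 tested genes of the glucocorticoid and fasting list had a median of -0.01, with either sign among the settings, and its stress genes DDIT4 and SGK1 were lowest in HOPE pigs 2 and 4, at -1.04 and -0.76.

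Stress genes gave no single direction. Of 22 tested immediate early genes 11 were positive and 11 negative, with a median of -0.10 that was -0.27 without pig 6 and took either sign among the settings (-0.27 to 0.15). FOS, the classic early transcription factor, had 25.9, 91.2 and 47.8 normalised counts in HOPE hearts and 207, 149.7 and 34.8 in SCS hearts. EGR1, a zinc finger factor of the same class, had 230.3, 479 and 344 in HOPE hearts and 1769, 713 and 312 in SCS hearts. ATF3, a stress-induced repressor, had 139, 319 and 1707 in HOPE hearts and 116, 188 and 86.4 in SCS hearts. The groups overlapped in all 3, and the extremes were single hearts: SCS pig 1 for FOS and EGR1, and HOPE pig 6 for ATF3. Besides NR4A3, IER3 was apart on the higher side and BTG2 on the lower side, at 0.57 ± 0.23 and -0.52 ± 0.23. Of 18 heat shock genes 16 were positive with a median of 0.31, and 0.50 without pig 6, and the median stayed positive in every setting tried (0.13 to 0.50). The co-chaperone BAG3 and the small heat shock protein HSPB8 were apart, at 0.48 ± 0.19 and 0.44 ± 0.18. The 18 hypoxia-induced genes had a median of -0.26, which ran over -0.33 to -0.13 among the settings and was nearest to 0 without HOPE pig 4. VEGFA, which calls in vessels, was apart on the higher side, with 2473, 1474 and 2495 in HOPE hearts and 1308, 1302 and 1459 in SCS hearts, while HMOX1, LDHA and the collagen hydroxylase P4HA1 were apart on the lower side. Antioxidant genes had a median of -0.04 over 20 genes, of either sign among the settings (-0.18 to 0.09), and the peroxiredoxin PRDX1 and the regulator NFE2L2 were apart on the lower side, at -0.48 ± 0.20 and -0.23 ± 0.16. Over all tested genes 5.22% were apart on the higher side and 6.21% on the lower side. Those shares are the background for each stress gene called apart here.

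Circadian clock genes can move with the hour of sampling, which the labels do not give. The 18 tested had a median of 0.15 with 12 positive. Scaling to the total count gave 0.28, and moved the median of all tested genes as well, to 0.11 from -0.02. CRY2, a repressor of the clock, was apart, with 1644, 2131 and 1149 normalised counts in HOPE hearts and 940.02, 856 and 896 in SCS hearts, at 0.83 ± 0.24. It was the only 1 of the 18 apart, a share near the 5.22% of all tested genes apart on the higher side. PER1, another repressor, overlapped, with 1813, 2359 and 3119 in HOPE hearts and 1407, 2276 and 1775 in SCS hearts. Of the 12 tested S100 and annexin genes 8 were negative, with a median of -0.45, and ANXA4, a calcium-dependent membrane binder, was apart at -0.52 ± 0.18. It was the only 1 of the 12 apart, near the 6.21% of all tested genes apart on the lower side.

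**Figure D5:**
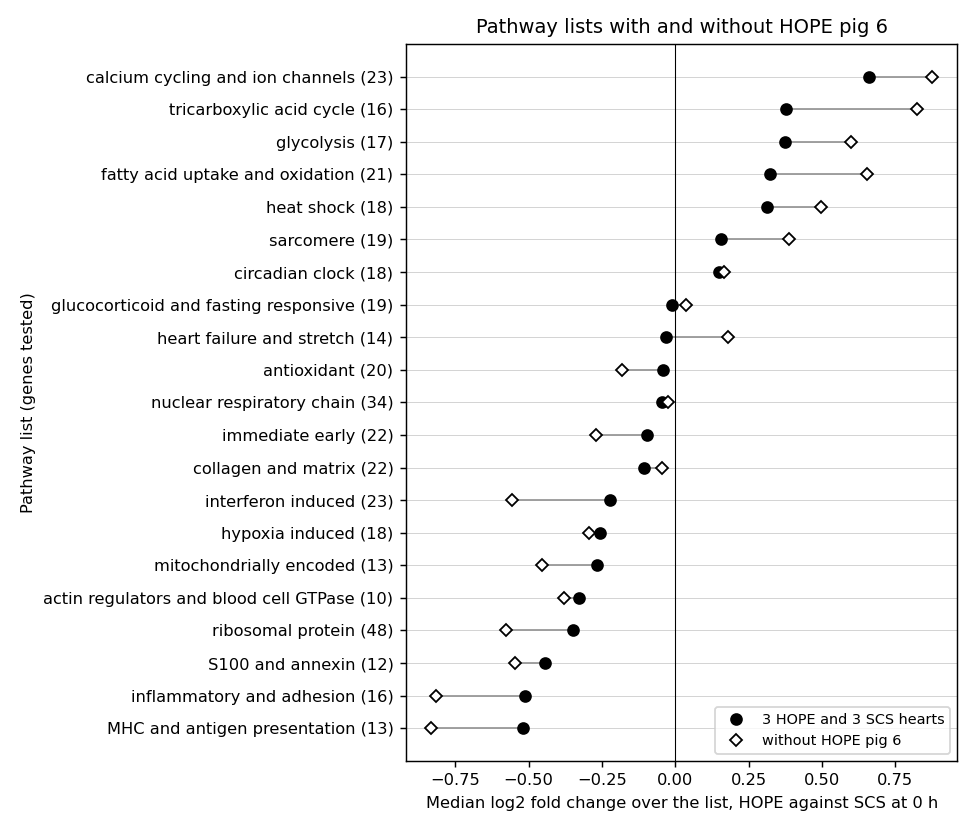
Each pathway list (rows, tested genes in brackets) is placed by its median log2 fold change of HOPE against SCS at 0 h, as a filled circle for all 6 hearts and an open diamond without HOPE pig 6. The tricarboxylic acid cycle list is at 0.38 with pig 6 and 0.82 without it, and the circadian clock list is at 0.15 and 0.17.

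The gaps seen at 0 h can be followed in later biopsies of the same pigs. Because the animals are the same, these values are a description and not a second test. The named genes were picked for their gaps at 0 h, and the share of all tested genes apart at later times is not reported here. From 12 h the groups also differ in storage, so animal and storage cannot be told apart in any later value. Of the 14 named genes that were higher in HOPE at 0 h, 13 kept a positive fold change at 12, 24 and 48 h, and the groups did not overlap in 11, 9 and 7 of them at those times, with 5 apart at all 3. Of the 16 named genes that were lower, all 16 kept a negative fold change, and 15, 11 and 8 were apart at 12, 24 and 48 h, 6 of them at all 3. NR4A3 still had 284, 1390.5 and 587 normalised counts in HOPE hearts at 48 h, against 49.02, 150.2 and 81.9 in SCS hearts. CYFIP2 had 2633, 1217 and 820.4 in HOPE hearts at 48 h, against 343, 227 and 152 in SCS hearts. MYL1 had 29.4, 111 and 65.98 in HOPE hearts at 48 h, against 1366, 740.1 and 506 in SCS hearts. In all 3 genes the groups were apart at 0 h, 12 h and 48 h. At 24 h NR4A3 and CYFIP2 were apart and MYL1 overlapped, with 116, 399.95 and 92.1 in HOPE hearts and 1491, 385 and 506 in SCS hearts.

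NPPB was the 1 of the 30 that turned. From 3.13 at the start its log2 fold change went to -0.72, -2.89 and -0.55 over the 3 later times, and at 48 h it had 379.9, 49.5 and 209.8 normalised counts in HOPE hearts and 449, 399 and 70.2 in SCS hearts, which overlap. NPPA, at 2.61 at 0 h, was at -1.30, -1.40 and -0.75 at the later times. CLDN5 was still apart, with 592, 572 and 1296 in HOPE hearts at 48 h and 1299.8, 2806 and 3292 in SCS hearts, whereas the endothelial list as a whole had medians of -0.84, -0.78 and -0.19 over the 3 later times.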

How the data were processed

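RNA from flash-frozen myocardium was made into poly(A) libraries with a strand-marking kit and sequenced as read pairs, per the labels' protocols. The submitters' processing notes list STAR 2.5.2b and HISAT2 2.2.1, Subread 1.5.2 and featureCounts 2.0.6, Trimmomatic 0.36, DESeq2 and the Sscrofa11.1 build, with no roles; which tool served which arm, and the strand setting, are not given in the sources used here. The values the authors deposited are normalised counts, a signal per gene; from the values, each is a whole number of reads divided by 1 size factor a library, within 1e-06. Of 21313 genes, 14365 had a symbol in the table and 109 more were matched in a reference; 6839 stayed unnamed and held 5.87% to 7.38% of counts at 0 h. Coordinates were matched by symbol to RefSeq's Sscrofa11.1.

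limma 3.58.1 (R 4.3.3) was run with a mean-variance trend on log2(normalised count + 1) for the 6 libraries at 0 h, for the 14122 genes with a mean of at least 10, with Benjamini-Hochberg adjustment at 0.05. edgeR 4.0.16 and DESeq2 1.42.0 were run on recovered reads. Scripts were tested on simulated data. The replicate numbers of the labels name pigs, and the same pig's 4 biopsies pair across times; nothing pairs HOPE with SCS pigs. Named genes were the 20 most counted, the 12 with the smallest p and the 6 largest non-overlapping fold changes in each direction at a mean of at least 100, the 4 smallest p and first 2 markers of each list, and 6 genes known from earlier results; other list members were named for their role after their values were seen. The groups, lists and rules were chosen with earlier results of these data known. List medians carry no test. Arm 2 was not used here, and most list members are given only through their list's counts and median or are not reported here.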

Additional observations from a re-analysis of the deposited data

How the results depend on the processing

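The 0 calls among 14122 genes stayed 0 with pseudocounts of 0.5 and 10, with no filter and with a mean of at least 100. They also stayed 0 with TMM or quantile scaling, with scaling to the total outside the 13 mitochondrial protein-coding genes and in edgeR. Scaling to the total count gave 1 call (NR4A3) and moved the median of all genes to 0.11 from -0.02. DESeq2 gave 32, with 22 higher and 10 lower. Leaving out 1 heart at a time gave 0 to 2007 calls, with 0 to 1026 higher and 0 to 981 lower; the 2007 came without HOPE pig 6, and without HOPE pig 4 the 1 call was LDHB. The cause was not tested, and with pig 6 left out HOPE rests on 2 hearts.

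With pig as a replicate block over all 24 libraries (correlation 0.44) 0 genes were called at 0 h, with 1326 at an unadjusted p under 0.05, against 0 and 1021 without the block. HOPE and SCS pigs are different animals, so the block pairs times within a pig and no HOPE heart with an SCS heart.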
